A study of Sus scrofa with 27 samples.

Results

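The genes described here are the interferon regulatory factors and the BATF proteins of the pig lung, followed by RNA sequencing during ex vivo lung perfusion (EVLP), in which a donor lung is ventilated and perfused outside the body. They were chosen by symbol: IRF1, IRF2, IRF3, IRF4, IRF5, IRF7, IRF8, IRF9, BATF and BATF2. A row with that gene name was matched for 9 of the 10 symbols, out of 31908 genes in the table, and BATF is not analysed here. All 9 had at least 10 counts in a library, and all 9 passed the filter on low counts in every comparison.

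The lungs came from 9 Large-White pigs and were taken in a non-heart-beating donor model, then kept in cold ischemia before EVLP. The Gold Standard (GS) group had 5 pigs (9, 17, 44, 55 and 77), whose Steen perfusate was replaced in part at intervals, and the Pediatric Dialysis (PD) group had 4 pigs (2, 3, 4 and 5), whose perfusate was dialysed in circuit through a membrane with a cutoff of 30 kDa. Each lung was biopsied at 0h, before perfusion, and at 6h and 12h of EVLP, which gives 27 libraries. The perfusate of every lung held the glucocorticoid methylprednisolone, cefuroxime and heparin, so the 6h and 12h biopsies, but not the 0h biopsies, followed perfusion with a glucocorticoid.

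IRFs are transcription factors that bind interferon-stimulated response elements (ISRE) in the promoters of interferons and of the genes that interferons induce. IRF3, IRF5 and IRF7 act below pattern recognition receptors, IRF9 is the DNA-binding part of the complex that answers type I interferon, and IRF1 is induced by interferon gamma and NF-kB and is opposed by IRF2 at shared sites. IRF4 and IRF8 are mainly factors of blood cells that bind DNA with partners such as PU.1 and the AP-1 proteins of the BATF family.

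The promoters of 5 genes are shown because the counts of IRF1, IRF2, IRF9 and BATF2 carry the called differences below and IRF8 holds the same element as IRF1. Each line is the 250 bases before the RefSeq transcription start (Sscrofa11.1), written 5′ to 3′ on the strand of the gene, and capitals mark matches to a searched motif. The counts are per Ensembl gene, whose start can differ from the RefSeq start. The RefSeq start of IRF2 (45693241) lies outside its Ensembl gene (45546779-45656928), and that of IRF8 (3060685) lies within its Ensembl gene (3041645-3137549). IRF1 is on the minus strand (chr2:134783647-134783896), IRF2 on the minus strand (chr15:45693242-45693491), IRF8 on the minus strand (chr6:3060686-3060935), IRF9 on the minus strand (chr7:75139642-75139891) and BATF2 on the plus strand (chr2:7179769-7180018).
IRF1: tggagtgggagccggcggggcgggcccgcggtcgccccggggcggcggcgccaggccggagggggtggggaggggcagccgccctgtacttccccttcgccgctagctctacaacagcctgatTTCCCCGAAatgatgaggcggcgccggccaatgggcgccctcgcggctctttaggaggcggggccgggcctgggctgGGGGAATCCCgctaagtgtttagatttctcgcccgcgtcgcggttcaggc
IRF2: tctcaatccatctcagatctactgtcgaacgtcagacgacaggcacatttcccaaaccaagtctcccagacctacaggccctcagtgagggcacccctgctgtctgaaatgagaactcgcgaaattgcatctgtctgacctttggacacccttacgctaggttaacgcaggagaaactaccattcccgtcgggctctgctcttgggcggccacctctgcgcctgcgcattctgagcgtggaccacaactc
IRF8: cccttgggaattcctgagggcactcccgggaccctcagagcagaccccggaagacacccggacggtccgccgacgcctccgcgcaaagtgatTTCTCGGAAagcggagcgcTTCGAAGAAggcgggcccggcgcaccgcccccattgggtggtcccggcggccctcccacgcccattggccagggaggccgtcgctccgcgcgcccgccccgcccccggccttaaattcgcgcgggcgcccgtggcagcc
IRF9: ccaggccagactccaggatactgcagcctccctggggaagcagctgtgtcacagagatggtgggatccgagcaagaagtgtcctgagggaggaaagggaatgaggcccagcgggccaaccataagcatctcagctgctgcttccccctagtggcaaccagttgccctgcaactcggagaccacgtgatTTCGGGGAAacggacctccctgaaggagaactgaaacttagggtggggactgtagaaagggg
BATF2: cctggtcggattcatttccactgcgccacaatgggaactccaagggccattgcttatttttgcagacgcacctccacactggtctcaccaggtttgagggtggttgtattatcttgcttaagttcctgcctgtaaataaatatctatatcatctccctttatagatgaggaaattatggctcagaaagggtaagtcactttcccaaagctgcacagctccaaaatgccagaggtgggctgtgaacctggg

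The motifs searched, on both strands, were the ISRE core (GAAA and again GAAA, 2 bases apart), the gamma-activated site (GAS) core TTCNNNGAA, the AP-1 site TGANTCA and the NF-kB consensus. The IRF1 promoter held a GAS core, TTCCCCGAA, from −127 to −119 relative to the start (chr2:134783765-134783773), and an NF-kB match, GGGGAATCCC, from −50 to −41 (chr2:134783687-134783696). The IRF8 promoter held the GAS cores TTCTCGGAA and TTCGAAGAA (chr6:3060835-3060843 and chr6:3060816-3060824), and the IRF9 promoter held 1 GAS core, TTCGGGGAA (chr7:75139695-75139703). No match lay in the windows of the other members, IRF2 and BATF2 included, and no member had a match that overlapped another motif. Among 19548 pig promoters of 250 bases before and 50 bases after the start, a GAS core was present in 7.13%, an NF-kB match in 16.5%, an AP-1 site in 6.03% and an ISRE core in 3.54%. A match describes the letters and not a bound site.

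The libraries held 26335584 to 67522703 counts in GS and 14650700 to 21820935 in PD, and the floor of 3 counts corresponded to at most 0.114 CPM (counts scaled to the size of the library) in GS and 0.205 CPM in PD. Every PD library was shallower than every GS library, and depth and group therefore cannot be told apart. The PD library of pig 2 at 12h and that of pig 4 at 0h stood apart, with a mean correlation of 0.873 and 0.881 to their own group against 0.919 to 0.958 for the other 25. The median log2 level of transcripts over 4000 bases minus that of transcripts under 1500 bases lay between 0.222 and 0.752 in GS and between −2.04 and −0.083 in PD, so that measure moved with the group. Lung epithelium markers were present in every group, and their 9 genes summed to 6680 to 16200 CPM in GS libraries and 17800 to 93200 CPM in PD libraries. SFTPC carried most of that gap, with a mean of 3580 CPM in GS and 40700 CPM in PD at 0h, where AGER was at 799 and 773 CPM, SFTPB at 1430 and 543 CPM and NKX2-1 at 91 and 60.5 CPM. Macrophage markers summed to 3540 to 9570 CPM in GS and 2560 to 6270 CPM in PD, dendritic cell markers to 83.5 to 129 CPM and 32.1 to 74.9 CPM, and B and plasma cell markers to 153 to 490 CPM and 250 to 2180 CPM. Neutrophil and monocyte markers summed to 169 to 553 CPM in GS and 271 to 1730 CPM in PD, T and NK cell markers to 153 to 426 CPM and 171 to 522 CPM, endothelial markers to 1410 to 3290 CPM and 1200 to 2750 CPM, and erythroid markers to 0.355 to 10.4 CPM and 7.9 to 363 CPM. No marker found in the table was at 0 over a whole group. In these bulk biopsies, fewer cells of a type and less RNA per cell cannot be told apart, and the part of cell composition in the results was not tested.

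Before perfusion the members spanned a wide range of levels per length, given here as CPM per kilobase (kb) of the exons of the RefSeq gene. In GS lungs at 0h the order was IRF3 (69.5 ± 22.9, SD, n = 5), IRF1 (55.3 ± 8.76), IRF8 (18.1 ± 4.52), IRF5 (16.5 ± 6.61), IRF2 (15.6 ± 1.9), IRF7 (11.6 ± 2.26), IRF4 (6.97 ± 1.04), BATF2 (4.03 ± 0.826) and IRF9 (1.88 ± 0.237). IRF3 and IRF1 overlapped in their ranges over pigs, as did each neighbouring pair from IRF8 to IRF7. In PD lungs at 12h, IRF1 stood first at 436 ± 89.7 CPM per kb (n = 4), and its range of 317 to 534 did not overlap the range of 22.4 to 53.8 of IRF8, the next gene in the order. Below IRF1, the range of each PD member at 12h overlapped that of the next, from IRF8 down to IRF9, so that order was not separated beyond the spread.

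**Figure D1:**
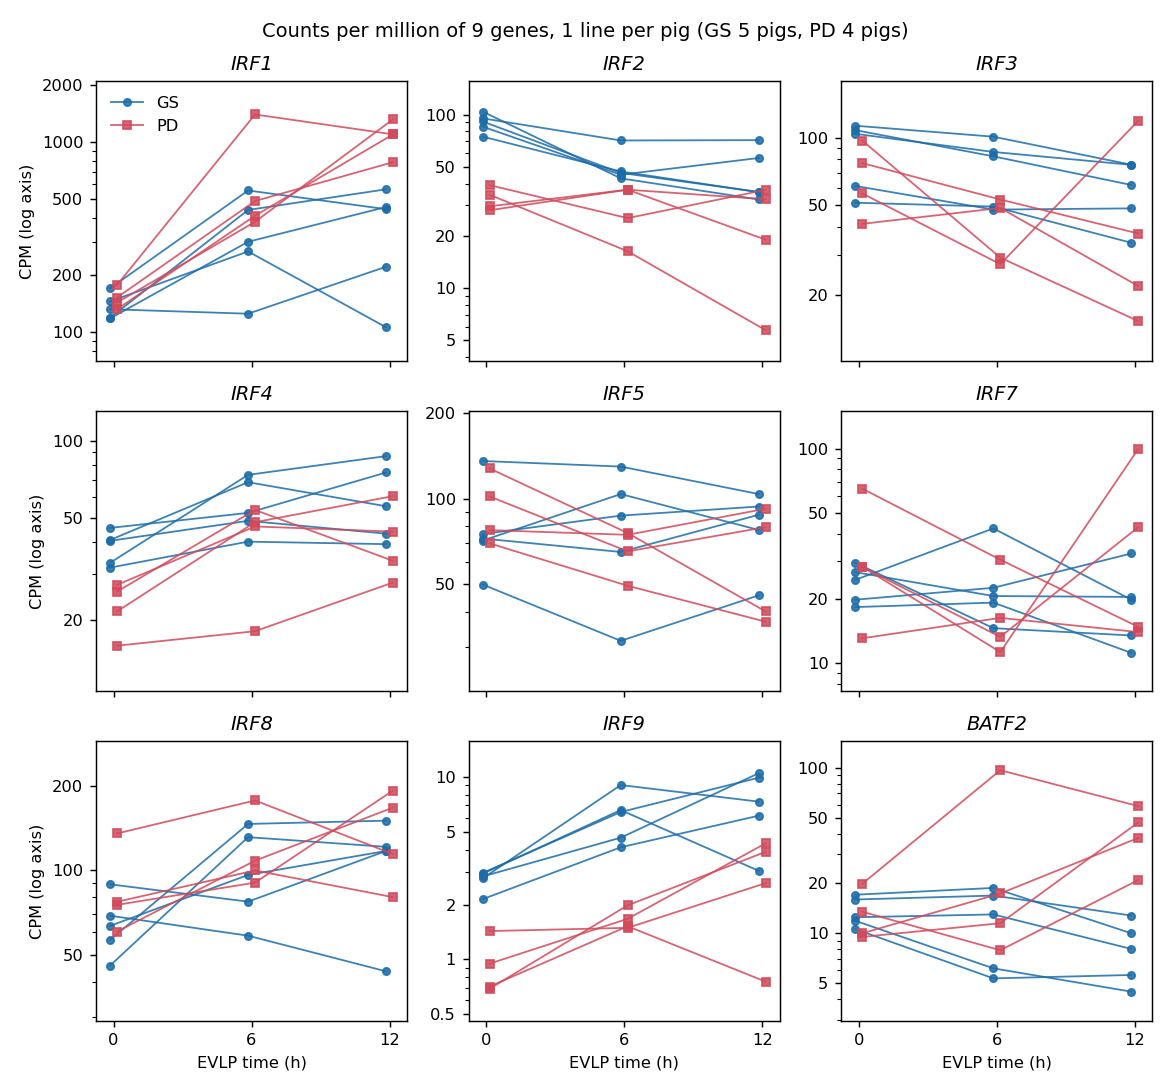
CPM (log axis) of each gene against EVLP time in hours, with 1 line per pig (GS circles, PD squares, drawn slightly apart in time). IRF1 in the 4 PD pigs at 12h lies between 785 and 1320 CPM, above all 5 GS pigs, and BATF2 parts the groups in the same way at 12h. The share of all genes that part the groups so was not counted.

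The first question is what perfusion did to these genes within each group. Each gene was tested with edgeR's quasi-likelihood F test with the pig as a block, and a call needed an adjusted p (Benjamini-Hochberg, over all genes tested) under 0.05 and a fold change (FC) of 2 or more. The changes at 6h and 12h share the 0h biopsies. In GS, 2 of 9 members were called at 6h, IRF1 and IRF9, both higher, where 11.1% of 18594 genes were called. At 12h the count was 3 of 9, with IRF1 and IRF9 higher and IRF2 lower, where 15.7% of genes were called. With the adjusted p alone the counts were 4 of 9 at 6h (28.5% of genes) and 6 of 9 at 12h (38.4% of genes), IRF4 being the addition at 6h beside IRF2, and IRF3, IRF4 and BATF2 at 12h. In PD, no member was called at 6h, where 0.142% of 15545 genes were called. There, 2 members had an unadjusted p under 0.05 in edgeR, as did 9.41% of genes, and DESeq2 called 1, IRF1, among 428 genes. At 12h, 1 of 9 was called in PD, IRF1, where 5.98% of genes were called. The median log2 change of the 9 members was −0.027 at 6h and 0.008 at 12h in GS, against −0.053 and −0.076 over all genes, and 0.45 and 0.70 in PD, against −0.025 and −0.048.

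IRF1 (ENSSSCG00000014277, chr2:134776134-134783646, minus strand), the factor that drives antigen processing and chemokine genes under interferon gamma, rose in both groups. At 0h it stood at 145, 132, 118, 119 and 170 CPM in GS pigs 9, 17, 44, 55 and 77, and at 132, 152, 177 and 143 CPM in PD pigs 2, 3, 4 and 5. The groups overlapped at that time. At 6h the same pigs had 266, 125, 299, 440 and 557 CPM in GS and 410, 490, 1400 and 381 CPM in PD, and at 12h they had 106, 221, 456, 565 and 444 CPM in GS and 1100, 785, 1100 and 1320 CPM in PD. GS pig 17 at 6h and GS pig 9 at 12h were below their own 0h level, the other GS values and all PD values were above it, and at 12h no GS pig reached the lowest PD pig. At 12h, 19.3% of all genes were called different in level between the groups, and the share without overlap was not counted. The fitted log2 change in GS was 1.10 ± 0.32 (SE, FC 2.15, edgeR adjusted p 0.0231) at 6h and 1.16 ± 0.33 (FC 2.24, edgeR adjusted p 0.0139) at 12h. In PD it was 1.99 ± 0.40 (FC 3.96) at 6h, with an edgeR adjusted p of 0.0827, and 2.86 ± 0.41 (FC 7.24, edgeR adjusted p 0.0149) at 12h. The GS call was lost at 6h without pig 44, 55 or 77 (edgeR adjusted p 0.076, 0.0786 and 0.0986), without the pig block (0.0515) and without the filter on low counts (0.0593), and at 12h without pig 44 or 55 (0.081 and 0.078). The PD call at 12h was lost without pig 3 or pig 5 (log2 changes of 3.01 and 2.71, edgeR adjusted p 0.166 and 0.246), where no gene was called, and when only the 0h and 12h libraries were fitted (0.106). The 6h change in PD was called without the 12h library of pig 2 (1.97, edgeR adjusted p 0.0148), among 252 genes in place of 22. RAD50, on the opposite strand, spans the IRF1 locus in the annotation, and the strand counted is not given in the sources used here.

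IRF2 (ENSSSCG00000015782, chr15:45546779-45656928, minus strand), which competes with IRF1 for its sites, was lower in GS after perfusion. At 0h it was 95.1, 74.6, 104, 91.2 and 85.2 CPM in GS pigs 9, 17, 44, 55 and 77, and at 12h 71.2, 35.7, 32.4, 35.8 and 56.2 CPM. All 5 GS pigs were below their 0h value at 6h and at 12h. The fitted log2 change was −0.88 ± 0.17 (SE, FC 0.542, edgeR adjusted p 0.00284) at 6h, short of the fold threshold, and −1.06 ± 0.17 (FC 0.481, edgeR adjusted p 0.000678) at 12h. The 12h fold missed 2 without pig 44 (−0.88), without pig 55 (−0.97), without the pig block (−0.98), with DESeq2 (−0.998) and with the length trend removed (−0.97), while its edgeR adjusted p stayed at 0.0122 or below in those edgeR fits. In PD, IRF2 was already low at 0h, at 34.5, 39.2, 28.1 and 29.6 CPM in pigs 2, 3, 4 and 5, and at 12h it was 5.72, 36.8, 32.5 and 19 CPM. The PD pigs did not move in one direction, with log2 changes at 12h from −2.58 in pig 2 to 0.208 in pig 4, and the fitted change of −0.73 ± 0.46 had an edgeR adjusted p of 0.361 and was −0.18 without pig 2. The log2 CPM of IRF1 minus that of IRF2, a measure of the balance of the activator and its competitor, was 0.60 ± 0.33 (SD, n = 5) in GS and 2.203 ± 0.34 (n = 4) in PD at 0h. It was 2.60 ± 0.92 and 4.38 ± 0.79 at 6h, and 2.80 ± 1.36 and 5.80 ± 1.38 at 12h. The gain in that difference since 0h was compared between the 4 PD and 5 GS pigs with an exact permutation test (two-sided) and did not pass it, with a PD minus GS mean of 0.18 at 6h (p 0.833) and 1.40 at 12h (p 0.246, adjusted over the 2 times 0.492). Without the 12h library of PD pig 2 that mean was 0.72 (exact permutation p 0.518).

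BATF2 (ENSSSCG00000023178, chr2:7180258-7188990, plus strand), an interferon-inducible AP-1 protein that works with IRF1 in macrophages, went in opposite directions in the groups at 12h. At 0h it stood at 17.1, 11.9, 10.6, 12.5 and 16 CPM in GS pigs 9, 17, 44, 55 and 77, and at 13.5, 10, 19.9 and 9.51 CPM in PD pigs 2, 3, 4 and 5. The groups overlapped. At 6h the values were 18.8, 6.14, 5.34, 13 and 16.9 CPM in GS and 7.9, 17.4, 96.7 and 11.5 CPM in PD, and at 12h they were 10, 4.44, 5.6, 8.04 and 12.8 CPM in GS and 21, 37.7, 58.7 and 46.8 CPM in PD. At 12h each of the 5 GS pigs was below its 0h value, each of the 4 PD pigs was above it, and the groups did not overlap. How many of all genes were without overlap was not counted. Within GS the log2 change was −0.35 ± 0.20 (SE, edgeR adjusted p 0.209) at 6h and −0.86 ± 0.20 (FC 0.552, edgeR adjusted p 0.00532) at 12h, the latter short of the fold threshold. Within PD it was 0.72 ± 0.51 (edgeR adjusted p 0.651, and a change of 0.093 without pig 4) at 6h and 1.601 ± 0.51 (FC 3.03, edgeR adjusted p 0.0827) at 12h. Without PD pig 2, or without its 12h library alone, the PD change at 12h was called (1.97 and 1.73, edgeR adjusted p 0.021 and 0.0283), as it was with DESeq2 (1.65, adjusted p 0.0104). Those settings called 3826, 4161 and 2560 of all genes in PD at 12h, against 930 in the main fit. Without pig 3 or pig 5 no gene was called there.

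IRF9 (ENSSSCG00000002002, chr7:75126609-75139639, minus strand), which carries the type I interferon signal to ISRE sites, had low counts, 94 to 506 in GS and 7 to 80 in PD. Its locus lies almost wholly within the annotated REC8 gene on the same strand, so reads of the pair may not be told apart and the IRF9 values are uncertain. In GS it was 2.78, 2.85, 2.14, 2.98 and 2.95 CPM at 0h, 9.04, 4.65, 4.12, 6.43 and 6.59 CPM at 6h and 7.33, 10.5, 6.14, 9.92 and 3.06 CPM at 12h in pigs 9, 17, 44, 55 and 77. Every GS pig was above its 0h value at both times, pig 77 by only 0.051 log2 at 12h. The fitted log2 change in GS was 1.13 ± 0.28 (SE, FC 2.19, edgeR adjusted p 0.0100) at 6h and 1.34 ± 0.28 (FC 2.54, edgeR adjusted p 0.00289) at 12h. In PD it was 0.71, 0.948, 1.43 and 0.691 CPM at 0h and 0.755, 4.33, 2.62 and 3.89 CPM at 12h in pigs 2, 3, 4 and 5, a log2 change of 1.49 ± 0.53 (FC 2.82) with an edgeR adjusted p of 0.111. Without the 12h library of PD pig 2, which held 7 counts of IRF9, the change was 1.83 (edgeR adjusted p 0.018). With every library kept, the PD change at 12h was called by DESeq2 (1.55, adjusted p 0.0214). It was also called with all 27 libraries in 1 edgeR fit (1.53, edgeR adjusted p 0.0139). In that order the settings called 4161, 2560 and 3300 of all genes in PD at 12h, against 930 in the main fit. REC8 itself rose in GS by a log2 change of 1.81 ± 0.38 (edgeR adjusted p 0.00455) at 6h and 1.958 ± 0.39 (edgeR adjusted p 0.00206) at 12h, from a mean of 12 CPM at 0h to 54.2 CPM at 12h. In PD its log2 changes were 0.995 and 1.78 (edgeR adjusted p 0.606 and 0.101), and at 0h its level differed between PD and GS by 0.087 (edgeR adjusted p 0.861), where IRF9 differed by −1.49.

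IRF3 (ENSSSCG00000003178, chr6:54701668-54707151, minus strand) is expressed without induction in most cells and is activated by phosphorylation. In GS it was 61, 51.4, 113, 108 and 104 CPM at 0h and 48.5, 34.1, 75.8, 61.6 and 75.7 CPM at 12h in pigs 9, 17, 44, 55 and 77. All 5 GS pigs were lower at 12h, by a fitted log2 change of −0.58 ± 0.11 (SE, FC 0.668, edgeR adjusted p 0.00164), which is short of the fold threshold. In PD it was 56.5, 41.4, 97.1 and 77.1 CPM at 0h and 119, 21.9, 15.3 and 37.5 CPM at 12h in pigs 2, 3, 4 and 5. Pig 2 went up and the other 3 went down, and the fitted change of −0.79 ± 0.63 had an edgeR adjusted p of 0.477. Without the 12h library of pig 2 the change was −1.66 (edgeR adjusted p 0.013) and IRF3 was called lower, among 4161 genes in place of 930. IRF7 (ENSSSCG00000012853, chr2:371606-375381, minus strand), the amplifier of type I interferon production, was highest in the same pair of libraries, at 99.6 CPM in PD pig 2 at 12h and 65.1 CPM in PD pig 4 at 0h, against 11.2 to 43.1 CPM in the other 25. No fitted change of IRF7 passed the test, with log2 values of −0.086 and −0.40 in GS and −0.73 and 0.35 in PD at 6h and 12h, and the last became −0.48 without the 12h library of pig 2. The RefSeq gene of IRF3 has 1257 exonic bases and that of IRF7 has 2046, the first being the shortest of the members. That of IRF9 has 1458 and that of IRF5 has 4895. Within PD, the log2 CPM of IRF3 and IRF7 correlated with the long-minus-short measure at r = −0.744 and −0.828 over 12 libraries that share pigs, given as a description. IRF2 (0.810) and IRF5 (−0.655) also moved with it in PD, where the other 5 members lay between −0.389 (IRF8) and 0.516 (IRF9). Over the 15 GS libraries the correlations were −0.812 for IRF8, −0.784 for IRF1, −0.741 for IRF4, −0.724 for IRF5 and 0.673 for IRF2, and between −0.446 and 0.364 for the other 4. With the length trend removed from each library, the GS log2 changes of IRF1 were 1.14 and 1.21 at 6h and 12h (edgeR adjusted p 0.0216 and 0.0126) and those of IRF4 were 0.58 and 0.63 (0.0278 and 0.0147).

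**Figure D2:**
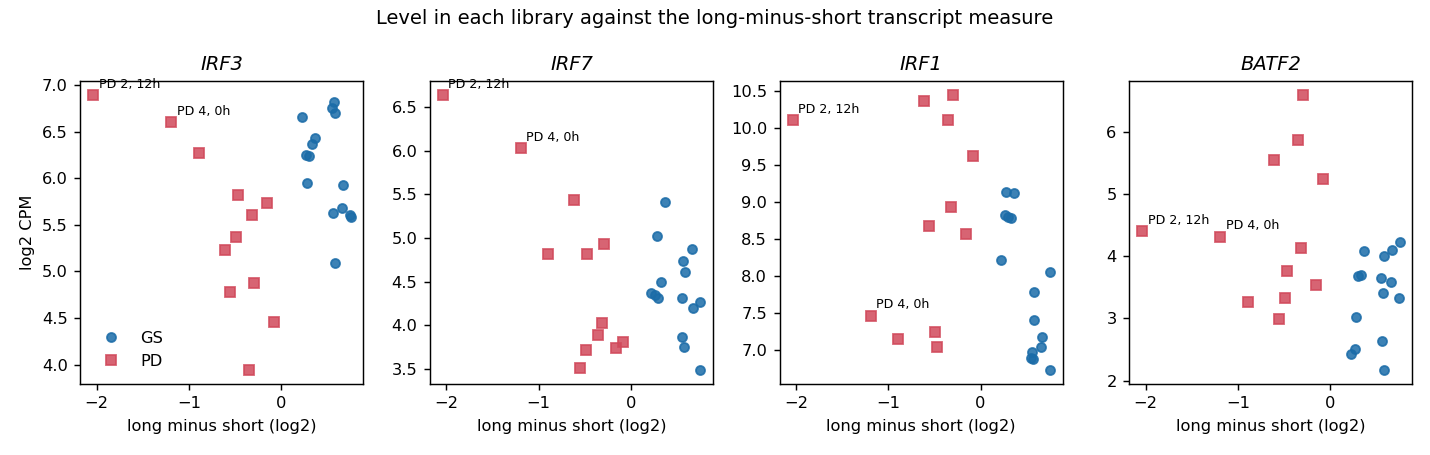
Level (log2 CPM) of IRF3, IRF7, IRF1 and BATF2 in each of the 27 libraries against the long-minus-short transcript measure (log2) of that library, GS as circles and PD as squares. The libraries of PD pig 2 at 12h and PD pig 4 at 0h, at −2.04 and −1.19, hold the highest IRF7 values, while the highest IRF1 and BATF2 values are in other PD libraries.

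IRF4 (ENSSSCG00000033381, chr7:133364-149609, plus strand), which directs plasma cell and T cell programmes, was higher in GS by less than the fold threshold, with log2 changes of 0.51 ± 0.17 (SE, FC 1.42, edgeR adjusted p 0.0385) at 6h and 0.55 ± 0.17 (FC 1.46, edgeR adjusted p 0.0216) at 12h. It was 31.9 to 45.6 CPM (median 40.6) at 0h and 39.4 to 87 CPM (median 55.4) at 12h, and all 5 GS pigs were above their 0h level at both times. In PD it was 15.8, 27.3, 25.7 and 21.5 CPM at 0h and 27.9, 44.1, 33.9 and 60.7 CPM at 12h in pigs 2, 3, 4 and 5. All 4 PD pigs were higher at 12h, with a fitted log2 change of 0.86 ± 0.33 and an edgeR adjusted p of 0.141. IRF8 (ENSSSCG00000034980, chr6:3041645-3137549, minus strand), the factor of monocytes and dendritic cells, had log2 changes of 0.55 ± 0.27 (edgeR adjusted p 0.138) and 0.62 ± 0.27 (0.0831) in GS and 0.45 ± 0.37 (0.684) and 0.70 ± 0.38 (0.286) in PD at 6h and 12h. In GS it was above its 0h level in pigs 44, 55 and 77 at both times and below it in pig 9, whose value at 12h was 43.6 CPM against 117 to 150 CPM in the other 4. The annotated IRF8 locus overlaps COX4I1 on the same strand, so some of its reads may be shared. IRF5 (ENSSSCG00000016573, chr18:19678686-19691154, minus strand), which acts below Toll-like receptors in macrophages, ranged from 31.6 to 136 CPM in GS and from 36.9 to 128 CPM in PD over all times. Its log2 changes were −0.027 ± 0.16 and 0.008 ± 0.16 in GS and −0.52 ± 0.36 and −0.66 ± 0.36 in PD at 6h and 12h, with edgeR adjusted p-values from 0.289 to 0.973, and the PD value at 12h lay between −0.99 without pig 2 and −0.31 without pig 4.

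**Figure D3:**
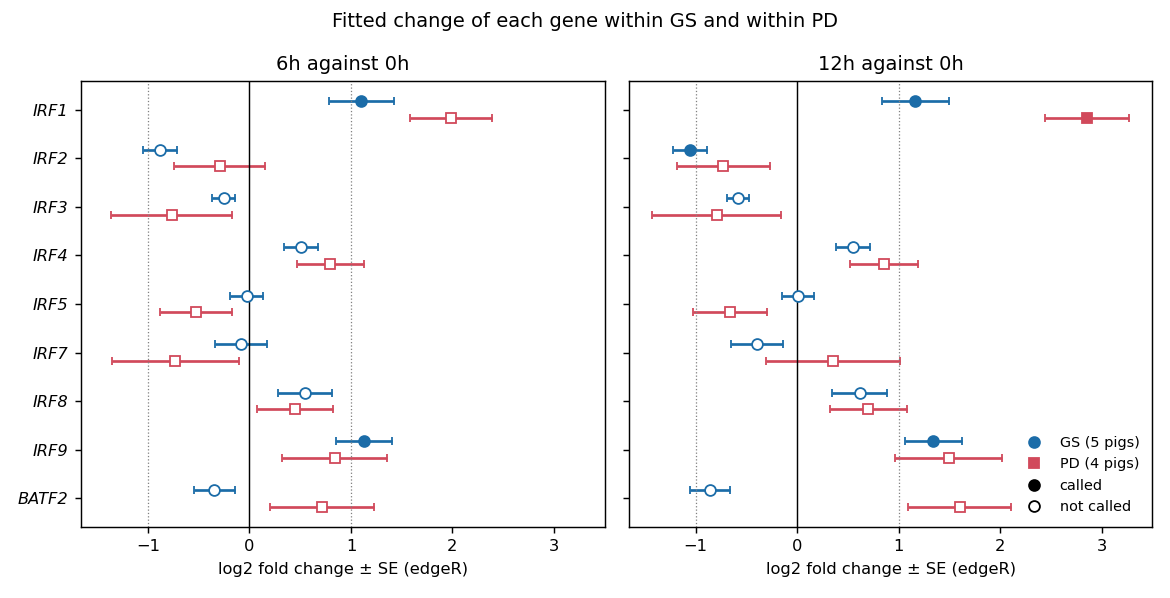
Fitted log2 fold change with its SE for each gene at 6h and 12h against 0h within GS (circles, 5 pigs) and PD (squares, 4 pigs), filled where called, with dotted lines at a fold of 2. The filled points are IRF1 in GS at both times and in PD at 12h, IRF9 in GS at both times and IRF2 in GS at 12h.

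Between 6h and 12h no member was called in either group, where 0% of genes were called in GS and 0% in PD by edgeR at an adjusted p under 0.05. At an unadjusted p under 0.05 there were 2 members in GS, IRF3 (−0.33 ± 0.11) and BATF2 (−0.51 ± 0.20), and 1 in PD, IRF1 (0.87 ± 0.39), against 4.74% and 10% of all genes, and DESeq2 called none of the 9 in either group.

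The second question is whether the groups changed differently, which was asked of the change in each pig since its own 0h biopsy (rlog, a log2 scale that shrinks low counts) by an exact two-sided Wilcoxon test of 4 PD against 5 GS pigs. At 6h, 0 of 9 members had an unadjusted exact p under 0.05, where 6.04% of 17884 genes did. At 12h, 2 of 9 did, IRF1 and BATF2, where 4.04% of genes did. The IRF1 change was 1.83 ± 0.29 (SD) in PD and 0.72 ± 0.63 in GS, and the BATF2 change was 1.07 ± 0.43 in PD and −0.44 ± 0.22 in GS. For both genes every PD pig had a larger change than every GS pig, which gives the smallest exact p that 4 against 5 can give, 0.0159, and an adjusted p of 0.711 over all genes. Both had that p on the log2 CPM scale too, where the differences were 1.65 and 2.41. Without PD pig 2 at 6h BATF2 also passed (exact p 0.0357, 3 PD against 5 GS pigs), as did 2028 genes in place of 1080, and without PD pig 3 at 6h IRF3 and IRF7 passed among 2463 genes.

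In edgeR's interaction of group and time over the 27 libraries, no member was called at 6h or at 12h, where 0% and 0% of genes were called. The members with an unadjusted p under 0.05 were 0 at 6h and 2 at 12h, against 5.85% and 5.98% of all genes. BATF2 had an interaction of 2.42 ± 0.52 on the log2 scale (SE, unadjusted p 0.000149, edgeR adjusted p 0.38) and IRF1 one of 1.66 ± 0.52 (unadjusted p 0.00452, edgeR adjusted p 0.677). DESeq2 called 0 members among 7 genes at 6h and 1 member among 15 genes at 12h, BATF2 (2.45, adjusted p 0.00654), and edgeR called BATF2 at 12h without PD pig 2 (2.82, adjusted p 0.0496) among 153 genes. The other 7 members had interactions from −0.70 (IRF5) to 0.72 (IRF7) at 12h.

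**Figure D4:**
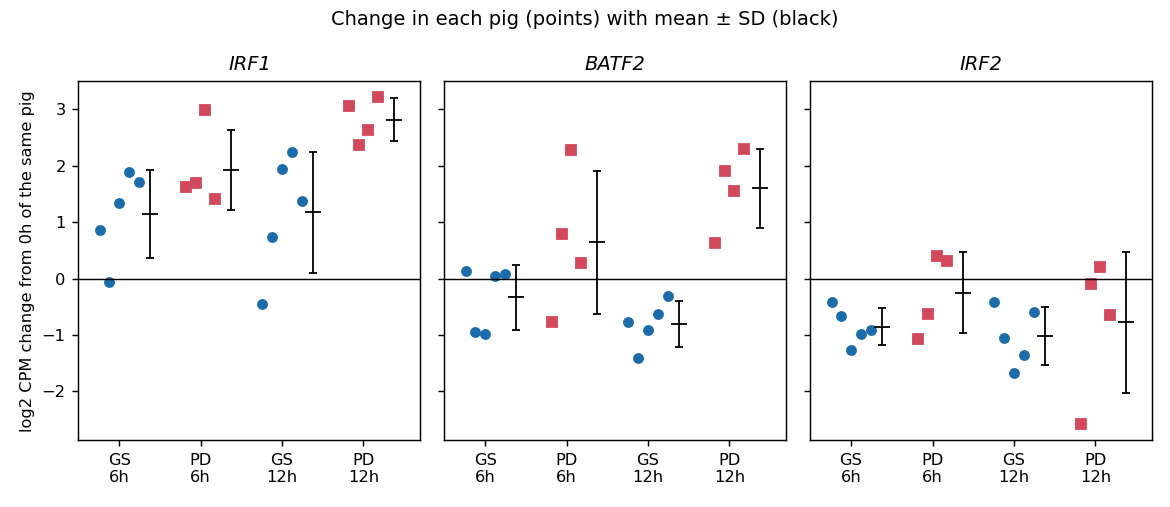
Change in log2 CPM since the 0h biopsy of the same pig for IRF1, BATF2 and IRF2 at 6h and 12h, 1 point per pig (GS circles, PD squares) with the mean and SD in black. At 12h the PD pigs lie at 2.37 to 3.21 for IRF1 and 0.639 to 2.29 for BATF2, above every GS pig, while the IRF2 changes of the groups overlap.

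The third question is whether the levels themselves differed between the lungs of the groups at each time, tested in edgeR on 9 libraries with the same thresholds. At 0h, 2 of 9 members were called, both lower in PD, where 29.1% of 16477 genes were called. IRF2 differed by −1.41 ± 0.18 on the log2 scale (SE, edgeR adjusted p 0.000132) and IRF9 by −1.49 ± 0.36 (edgeR adjusted p 0.00581). Neither overlapped between groups, nor did IRF4, and the share of all genes without overlap was not counted. At that time 49.2% of all genes had an unadjusted edgeR p under 0.05. IRF4 was lower in PD by less than the fold threshold (−0.72 ± 0.22, edgeR adjusted p 0.0185), where 40.6% of genes passed the adjusted p alone. With the length trend removed from each library, that IRF4 difference was −0.40 and no longer passed (edgeR adjusted p 0.184). IRF1 and BATF2 stood close together before perfusion, with log2 differences of 0.19 ± 0.19 and 0.004 ± 0.27 (edgeR adjusted p 0.447 and 0.994). At 6h, 1 of 9 was called, IRF9 (−1.90 ± 0.36, edgeR adjusted p 0.00389), where 21.1% of genes were called. At 12h, 2 of 9 were called, both higher in PD, where 19.3% of genes were called. BATF2 was higher by 2.32 ± 0.41 (edgeR adjusted p 0.00365), with a mean of 41 ± 15.9 CPM (SD, n = 4) in PD and 8.19 ± 3.38 CPM (n = 5) in GS, and IRF1 by 1.61 ± 0.44 (edgeR adjusted p 0.0236), with 1080 ± 222 CPM in PD and 358 ± 189 CPM in GS. The IRF1 call at 12h was lost without GS pig 17, GS pig 44 or PD pig 5 (edgeR adjusted p 0.0537, 0.0511 and 0.0639), while IRF9 was called lower in PD at 12h with DESeq2 (−1.32, adjusted p 0.0342) and IRF3 without the 12h library of PD pig 2 (−1.24, edgeR adjusted p 0.0271). With the length trend removed from each library, the level calls of IRF1, BATF2, IRF2 and IRF9 were kept, and IRF3 became lower in PD at 0h (−1.13, edgeR adjusted p 0.00736) and 6h (−1.31, edgeR adjusted p 0.0133).

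The genes around these factors in the interferon pathway were counted from lists, on the same calls, which took 11.1% and 15.7% of all genes in GS and 0.142% and 5.98% in PD at 6h and 12h. Of 15 tested interferon ligands, receptors and JAK-STAT genes none was called by edgeR within GS or PD at 6h or 12h, where 10 and 9 had an unadjusted p under 0.05 in GS and 0 and 4 in PD. Over all genes those shares were 41.2% and 48.5% in GS and 9.41% and 24.5% in PD. The receptor chain IFNGR1 was higher in PD at all 3 times (level differences of 1.22, 1.31 and 2.05 log2, edgeR adjusted p 0.000716, 0.0122 and 0.00131). IFNG, the gene of interferon gamma itself, was higher in PD at 6h (2.35 log2, edgeR adjusted p 0.0175). Of the 15 genes, 2, 3 and 1 were higher and 1, 0 and 1 lower in PD at 0h, 6h and 12h, where 29.1%, 21.1% and 19.3% of all genes were called in either direction. TYK2, a kinase of the type I interferon receptor, was lower in PD at 0h and 12h (−1.12 and −1.50, edgeR adjusted p 0.00143 and 0.0141). Among 16 sensors and kinases above IRF3, IRF5 and IRF7, the adaptor TICAM1 rose (1.07 and 1.04) and the DNA sensor CGAS fell (−1.02 and −1.34) in GS at 6h and 12h, and TRAF3 rose in PD at 12h (1.33 ± 0.35, edgeR adjusted p 0.0486). Of 11 feedback genes, 3 rose and 1 fell in GS at both times, and 2 rose and 1 fell in PD at 12h. SOCS3 rose in GS (1.99) and PD (2.52) at 12h, and the phosphatase PTPN6 fell in both (−1.41 and −1.64). Among 6 other IRF and BATF genes and their regulators edgeR called none within a group, where 0 and 1 had an unadjusted p under 0.05 in GS and 1 and 1 in PD at 6h and 12h, and BATF3 was higher in PD at 12h (3.81 ± 0.72, edgeR adjusted p 0.00479). SPI1, which encodes PU.1, was lower in PD at 0h and 6h (−1.02 and −1.39, edgeR adjusted p 0.00505 and 0.00868), and the AP-1 gene JUNB was lower at 0h (−1.58, edgeR adjusted p 0.00254). Without PD pig 3 or PD pig 5, 0 of all genes were called in PD at 12h, so every PD call at 12h in these lists was lost with either pig.

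Of 28 type I interferon-stimulated genes tested, edgeR called 0 in either group at 6h, where 9 had an unadjusted p under 0.05 in GS and 3 in PD (41.2% and 9.41% of all genes). At 12h, when 15.7% of all genes were called in GS and 5.98% in PD, 2 rose (ISG15 and IFIT5, 1.11 and 1.07) and 1 fell (IFI44, −1.02) in GS, and 1 rose in PD (ISG15, 2.90 ± 0.67, edgeR adjusted p 0.0329). Their median log2 change was −0.22 and −0.34 in GS and 0.39 and 0.66 in PD at 6h and 12h. Over all genes it was −0.053 and −0.076 in GS and −0.025 and −0.048 in PD. Positive values numbered 10 and 7 of 28 in GS and 22 and 20 of 28 in PD. The share of positive values over all genes was not counted, and genes from the same pigs are not replicates. In edgeR's interaction of group and time, 0 of the 28 were called at 6h and 0 at 12h. There, 0 and 5 of 28 had an unadjusted edgeR p under 0.05, against 5.85% and 5.98% of all genes. By the exact Wilcoxon test 4 of the 28 had a higher signed change in PD than in GS at 12h (4.04% of all genes passed). Among them were ZBP1 and DHX58 (1.04 and 0.93 rlog, exact Wilcoxon p 0.0159 each). Their levels were higher in PD for 7, 8 and 10 of the 28 at 0h, 6h and 12h and lower for 2, 1 and 0, where 29.1%, 21.1% and 19.3% of all genes were called in either direction. Of 21 interferon gamma and IRF1 targets, 9, 10 and 12 had higher levels in PD at those times and 1, 0 and 0 lower. Within the groups, CASP1 fell in GS at both times (−1.18 and −1.83) and in PD at 12h (−2.68 ± 0.42, edgeR adjusted p 0.0161), and IDO1 fell in GS at 12h (−1.36). CXCL10, a chemokine for T cells, rose in PD at 12h (4.08 ± 0.99, edgeR adjusted p 0.0371), against 0.64 ± 0.54 in GS, and this call too was lost without pig 3 or pig 5. By the Wilcoxon test 3 of the 21 targets had a higher signed change in PD than in GS at 12h (4.04% of all genes passed). Among them were CXCL10 and the MHC class II activator CIITA (0.61 rlog, exact Wilcoxon p 0.0159, adjusted p 0.711). At 6h 1, PSMB8, had a lower signed change in PD than in GS (−0.36 rlog, exact Wilcoxon p 0.0317), where 6.04% of all genes passed. Of 15 partners and targets of BATF and IRF4, NFIL3 and PRDM1 rose in both groups at 6h and 12h (2.18 and 1.38 in GS and 2.45 and 2.29 in PD at 12h), the PD calls at 6h being lost without pig 3, pig 4 or pig 5, and IL12B fell in GS (−2.27 and −2.12).

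**Figure D5:**
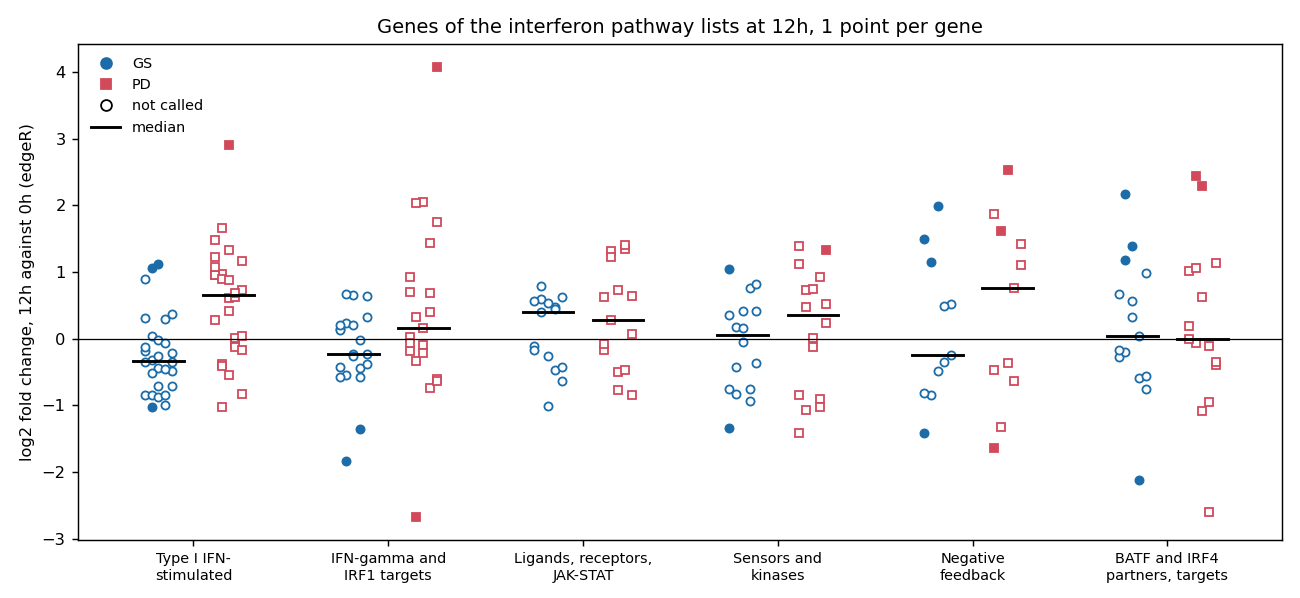
Fitted log2 fold change at 12h against 0h of each gene tested in 6 lists, GS as circles and PD as squares, filled where called, with the median of each list as a black bar. The median of the type I interferon-stimulated genes is −0.34 in GS and 0.66 in PD, against −0.076 and −0.048 over all genes. CXCL10 is the highest point at 4.08 in PD.

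The profile of each member over the 27 libraries, after the mean of each pig was removed, was compared with those of 12835 genes by Pearson's r. These correlations are descriptions over libraries that share pigs and differ in depth. Nearest to IRF1 were the kinase gene PIM1 (0.957), RNF19B (0.956) and FJX1 (0.946), and nearest to BATF2 were the Fc receptor and ubiquitin ligase gene TRIM21 (0.907), ZBP1 (0.822) and TOE1 (0.817). TRIM21, named here for that likeness and also a member of the feedback list above, had a log2 change at 12h of −0.25 ± 0.16 (edgeR adjusted p 0.241) for GS lungs and 1.42 ± 0.44 (0.0755) for PD lungs. Its change at 12h was larger in PD by 0.99 rlog (exact Wilcoxon p 0.0159, adjusted p 0.711), where 4.04% of all genes passed. As TRIM21 was picked for its likeness to BATF2 in these libraries, that p is a description and not a test. The level of TRIM21 was lower in PD at 0h (−1.03, edgeR adjusted p 0.00302) and differed by 0.48 (0.37) at 12h. Nearest to IRF8 were RUNX3 (0.920), TICAM1 (0.897) and the NF-kB inhibitor gene NFKBIE (0.891), to IRF4 PLAGL2 (0.921), OTUB2 (0.913) and PFKFB3 (0.911), and to IRF2 PHF8 (0.950), ATF7IP (0.939) and ZNF248 (0.933). Nearest to IRF3 were SCRN2 (0.972), ALAD (0.970) and RPUSD1 (0.966), to IRF5 SOX18 (0.863), CD79B (0.854) and NCF4 (0.849), to IRF7 EGFL8 (0.905), TK1 (0.883) and FAM71E1 (0.879), and to IRF9 PPP2R1B (0.944), SNRNP48 (0.934) and SON (0.923). Among the members, IRF1 ran closest to IRF4 (0.883) and IRF8 (0.766), and IRF2 ran opposite to IRF8 (−0.789) and IRF1 (−0.662). Against the summed markers, IRF3 ran with the erythroid genes (0.832), IRF5 with erythroid (0.612), neutrophil and monocyte (0.607) and macrophage genes (0.599), and BATF2 opposite to lung epithelium (−0.604) and neutrophil and monocyte genes (−0.555). IRF1, IRF4 and IRF9 ran opposite to T and NK cell genes (−0.627, −0.537 and −0.669) and erythroid genes (−0.54, −0.555 and −0.643), and IRF3 ran with lung epithelium (0.557). In PD at 0h the erythroid sum was mostly HBB (mean 136 CPM, against 0.637 for HBM and 1.78 for ALAS2). SFTPC (40700 CPM) and S100A12 (638 CPM) were the largest parts of the lung epithelium and the neutrophil and monocyte sums. These r can therefore follow 1 gene and need not describe a cell type. IRF3 also moved with the long-minus-short measure in PD (r = −0.744). The part of the markers in the values of any member was not tested.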

How the data were processed

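The authors deposited a table of raw counts per Ensembl gene (release 101, Sscrofa11.1) for the 27 libraries, and these counts were used as deposited. The submitters' processing notes name bcl2fastq 2.2.18.12, cutadapt 1.15, TopHat2 2.0.14, featureCounts, Subread 1.6.0 and DESeq2 1.18.1. Total RNA was extracted with either of 2 kits, not tied to a sample by the labels, so the part of the kit in the length measure and in the differences between groups was not tested. Neither the strand setting nor the treatment of multi-mapped reads is given in the sources used here, which leaves overlapping and antisense genes uncertain. Each column was matched to its sample by title, and all columns were used.

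In R 4.3.3, edgeR 4.0.16 (filterByExpr, TMM, robust quasi-likelihood F tests, two-sided, Benjamini-Hochberg adjustment) was fitted on all genes within each group with the pig as block. DESeq2 1.42.0 gave rlog values and an alternative test. The biopsies of a number come from 1 pig, so the design pairs them. Residual profiles of the same pig correlated at a mean r of 0.526 in GS (0.342 to 0.74) and 0.109 in PD (−0.283 to 0.488), against −0.155 and −0.121 between pigs. CPM used TMM factors, with a prior count of 2 on the log2 scale. Floors cover counting error only. SD within a group come from 4 or 5 pigs. The SE of an edgeR value is its size over the square root of its F statistic. That statistic uses a spread shared in part across genes and, within a group, over all times. Fits within a group used 4 or 5 pigs, and those of interactions and level differences used 9.

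Alternatives were no block, only the times compared, 1 fit of all libraries, DESeq2, its size factors, no filter, no fold threshold, other scales of the change, and each pig left out. Leaving out the library of PD pig 2 at 12h or of PD pig 4 at 0h, and removing the lowess trend with transcript length (span 0.5), were added after seeing the data. The scripts were tested on simulated data. Every member is named with its values, and from each list at most the 2 called genes with the largest change in each direction per comparison, plus the 3 genes most like each member. The values of CXCL10 and TRIM21 where they were not called, and those of REC8, were added after seeing the data. Members and lists were chosen with earlier results of these data known, so nothing here is independent of them. List genes not found by name were 16. Promoters are from RefSeq, Sscrofa11.1.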

Additional observations from a re-analysis of the deposited data

Results flagged for a closer look

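In 54 groups of 4 or 5 libraries (9 genes, 2 groups, 3 times), 4 held a library far from the others, and chance flags about 1 in 20 groups. IRF2 in GS at 6h was 6.15 log2 CPM in pig 9 against 5.42 to 5.56 in the other 4 pigs. IRF8 in GS at 12h was 5.45 log2 CPM in pig 9 too, against 6.88 to 7.23 in the others. IRF4 in PD at 6h was 4.18 log2 CPM in pig 2 against 5.53 to 5.75. IRF9 in GS at 0h was 1.13 log2 CPM in pig 44 against 1.504 to 1.601.

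IRF1 and BATF2 differed between the groups in their change at 12h, PD minus GS, by 1.11 and 1.51 on the rlog scale (exact two-sided Wilcoxon p 0.0159 for each, the smallest possible, adjusted p 0.711). For BATF2 the 4 PD pigs went up and the 5 GS pigs went down, and the mean log2 CPM change differed by 2.41.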

How the results depend on the processing

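Without the replicate block, the members called were 1 in GS at 6h (2 with it) and 1 in PD at 6h (0 with it). Over all genes the block moved the calls from 1123 to 2057 and from 1896 to 2911 in GS at 6h and 12h, and from 100 to 22 and from 1460 to 930 in PD, and the Wilcoxon counts from 2071 to 1080 and from 1181 to 722. With no fold threshold, 4 and 6 members passed in GS at 6h and 12h (5295 and 7136 genes). In GS at 6h the count of members was 1 with no filter. In PD at 6h it was 1 with the 2 times compared, all libraries in 1 fit, no filter, DESeq2, the length trend removed, or the 12h library of pig 2 left out. In PD at 12h it was 0 with the 2 times compared, 3 with all libraries in 1 fit or DESeq2, and 4 without that library. DESeq2 gave 1 member with an interaction at 12h. At 6h, 2 members differed in level with the length trend removed. Leaving out each pig gave 1 to 2 members in GS at 6h, 1 to 3 at 12h, 0 to 4 in PD at 12h, 0 to 1 for the 12h interaction, 1 to 2 and 1 to 3 for levels at 6h and 12h, and 0 to 2 and 2 to 3 for the Wilcoxon test at 6h and 12h.

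Values near 0 that changed sign were not called: IRF5 in GS at 6h (0.026 with no block, 0.003 with the 2 times compared, 0.008 with DESeq2 or its size factors, 0.035 with the length trend removed, −0.16 to 0.16 without a pig) and at 12h (−0.020 with no block, −0.057 to 0.11 without a pig), IRF7 in GS at 6h (−0.32 to 0.17 without a pig), IRF2 in PD at 6h (−0.53 to 0.036 without a pig), IRF7 in PD at 12h (−0.48 without the library of pig 2, −0.40 to 1.02 without a pig), and the level differences of BATF2 at 0h (−0.077 with no filter, −0.27 without the library of PD pig 4, −0.27 to 0.14 without a pig), IRF1 at 0h (−0.013 with the length trend removed) and IRF3 at 12h (0.042 without PD pig 4). Left-out pigs put that IRF3 difference between −1.24, called without PD pig 2, and 0.042. Over all members and comparisons, 76 of 1611 alternative values changed sign, 0 of them called in either fit.

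The count of all genes called moved beyond 1.5 times in GS at 6h (1219 in 1 fit, 1078 with the length trend removed, 1318 without pig 44), in GS at 12h (1545 with that trend removed) and in PD at 6h (139 with 2 times, 479 in 1 fit, 103 with no filter, 428 with DESeq2, 54 with the trend removed, 252 without the pig 2 library, 0 to 98 without a pig). In PD at 12h it was 4, 3300 and 2560 with 2 times, 1 fit and DESeq2, and 4161 and 457 without the library of pig 2 at 12h or pig 4 at 0h. Leaving out a whole PD pig gave 3826 at 12h without pig 2, 399 without pig 4 and 0 without pig 3 or pig 5. For 12h against 6h it was 2 in GS with DESeq2 and 492 and 224 in PD in 1 fit and with DESeq2. The interaction had 7 and 15 genes with DESeq2, and 254 and 153 without PD pig 2. Levels had 2709 and 1831 genes at 0h and 12h with the trend removed, 1658 to 3855 at 6h and 1958 to 4301 at 12h without a pig, and the Wilcoxon test 667 to 2463 and 481 to 2995. The cause of these moves was not tested.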
